A study of Mus musculus with 6 samples.

Results

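The apolipoproteins are the protein parts of the particles that carry lipid in plasma, and the 10 genes described here are those of the classical family, *Apoa1*, *Apoa2*, *Apoa4*, *Apoa5*, *Apob*, *Apoc1*, *Apoc2*, *Apoc3*, *Apoc4* and *Apoe*. They were taken by symbol from the comparison of wild-type and knock-out liver, and all 10 were found among its 16123 genes. Each gene has 1 expression value in each genotype, on the scale of reads per library after normalization for depth, in which the 3 libraries of the genotype are combined. All 10 values were lower in the *Txndc5*-deficient (KO) liver than in the wild-type (WT) liver, with KO values between 67.8% and 88.6% of the WT values. Among all genes whose mean of both values reached 1, 57.5% were lower in KO. No spread between pools can be computed from combined values, so that no difference given here has a replicate check or a test, and "lower" and "higher" refer to the deposited values alone.

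The labels give the strain of the WT libraries as C57BL/6Rj (pools 1, 2 and 5) and that of the KO libraries as C57BL/6JRj-*Txndc5*<em2Mdnp>/Ciba (pools 2, 3 and 4), in which genome editing deleted exon 3 of the gene and which descends from a single male founder. By the methods of the study the founder was crossed to C57BL/6J, and the males of both genotypes came from crosses of heterozygous mice. All were 2-month-old males that received a purified diet for 4 weeks, followed by 16 h of fasting before sacrifice, and liver RNA of 3 mice was combined in each pool. TXNDC5 is a protein disulfide isomerase, an enzyme of the endoplasmic reticulum that forms and rearranges disulfide bonds in proteins on their way out of the cell. The deletion is in every cell of the body, since no tissue-specific driver was used.

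The 6 libraries held between 44040160 and 46050030 clean reads, of which between 91.63% and 93.66% mapped and between 62.19% and 65.69% mapped uniquely. *Txndc5* itself was at 2697 in WT and at 90.8 in KO, 3.37% of its WT level. All 6 hepatocyte markers were read at high values, led by *Alb*, the gene of albumin, with 1329546 in WT and 1332576 in KO. The summed level of the 6 red cell markers, all 6 of them higher in KO, was 118830 in WT and 180430 in KO, a 1.52-fold difference. Whether that difference had a part in the lower apolipoprotein values was not tested, and the values relative to a total without these markers are given at the end.

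Lipoproteins are sorted by density, from the triglyceride-rich chylomicrons and very-low-density lipoproteins (VLDL) to the cholesterol-rich low-density (LDL) and high-density lipoproteins (HDL). Apolipoprotein B stays with its particle from assembly to uptake, whereas the other apolipoproteins are small amphipathic proteins that move between particles, activate or restrain lipases and bind receptors. The liver is the main source of most of them, and *Apoa4* and *Apob* are also strongly expressed in the intestine.

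In the table the genes carry the NCBI Gene identifiers 11806 (*Apoa1*), 11807 (*Apoa2*), 11808 (*Apoa4*), 66113 (*Apoa5*), 238055 (*Apob*), 11812 (*Apoc1*), 11813 (*Apoc2*), 11814 (*Apoc3*), 11425 (*Apoc4*) and 11816 (*Apoe*). They lie at 4 places of the mouse genome (build GRCm38, GENCODE M21). *Apoa1*, *Apoc3*, *Apoa4* and *Apoa5* form a cluster of 43.3 kb on chromosome 9, from 46228580 to 46271919, in which *Apoc3* alone is on the minus strand. *Apoe*, *Apoc1*, *Apoc4* and *Apoc2* follow each other within 27.6 kb of chromosome 7, between 19671579 and 19699188, all on the minus strand. *Apoa2* stands alone on chromosome 1, from 171225054 to 171226379, and *Apob* on chromosome 12, from 7977648 to 8016835, both on the plus strand. *Apob* has up to 29 exons in an annotated coding transcript, and the other 9 genes have between 3 and 5.

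The sequences just upstream of 4 of the genes are shown because these genes mark the ends of the pattern described next: *Apoe* and *Apoa1* had the highest values of the family, and *Apoa4* and *Apob* the log2 ratios farthest from 0. They come from RefSeq on GRCm38.p6, which gave a promoter for 8 of the 10 genes and none for *Apoc1* and *Apoc3*. Each starts 250 bases before the RefSeq start of the gene, ends before the first base of any annotated transcript, and is written in the direction of the gene. Capitals mark the TATA box letters TATAAA and the core TGNNCTTTG of elements read by nuclear receptors such as HNF4A, on either strand.
Apoe, chr7:19699189-19699438 (- strand): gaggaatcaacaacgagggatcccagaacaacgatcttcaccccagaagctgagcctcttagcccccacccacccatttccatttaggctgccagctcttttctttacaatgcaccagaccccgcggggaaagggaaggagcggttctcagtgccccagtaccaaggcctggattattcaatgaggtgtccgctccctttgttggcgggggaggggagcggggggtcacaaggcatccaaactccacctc
Apoa1, chr9:46228380-46228579 (+ strand): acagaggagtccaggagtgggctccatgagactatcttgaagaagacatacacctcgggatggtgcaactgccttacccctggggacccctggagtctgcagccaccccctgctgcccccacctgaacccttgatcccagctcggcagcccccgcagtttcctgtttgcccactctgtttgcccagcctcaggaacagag
Apoa4, chr9:46240594-46240695 (+ strand): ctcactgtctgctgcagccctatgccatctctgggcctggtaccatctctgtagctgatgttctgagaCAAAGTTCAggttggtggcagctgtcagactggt
Apob, chr12:7977427-7977647 (+ strand): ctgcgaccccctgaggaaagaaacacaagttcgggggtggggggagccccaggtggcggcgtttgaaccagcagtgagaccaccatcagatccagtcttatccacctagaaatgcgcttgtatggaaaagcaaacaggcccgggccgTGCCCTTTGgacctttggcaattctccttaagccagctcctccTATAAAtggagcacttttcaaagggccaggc

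*Apob* held both motifs, with TATAAA from position -60 and TGNNCTTTG from position -103, counted from the base before the RefSeq start as -1, and *Apoa4* held TGNNCTTTG from position -182. Neither motif was found upstream of *Apoa1* or *Apoe*, which says only that these letters are not in the window. Over 250 bases upstream and on either strand, TATAAA was in 3 of the 8 member promoters (*Apoa2*, *Apoa5* and *Apob*) and in 12.4% of all 32851 promoters, and TGNNCTTTG in 2 of the 8 and in 5.49% of all. The nuclear receptor half-site AGGTCA was in the promoters of *Apoc2* and *Apoc4* and in 14.0% of all. The forkhead motif TGTTTAC was in that of *Apoa2* (3.17% of all), and GTTAAT, a part of the HNF1 element, in that of *Apoc2* (6.43% of all). None of these 5 motifs was thus common to the members.

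The family took a large part of the liver signal. Its summed value was 1969264 of 19773891 in WT (9.96%) and 1515902 of 18532558 in KO (8.18%). The sum over the 10 genes was thus 23.0% lower in KO, against 6.28% for the sum over all genes. The difference in the family's sum equalled 36.5% of the net difference between both totals. Genes higher and genes lower in KO partly cancel in that net difference, so it is not a share of all lowered signal. Within the family the proportions were much alike in both genotypes. *Apoe* and *Apoa1* together gave 70.7% of the family's sum in WT and 70.1% in KO, and 72.7% of its difference.

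**Figure D1:**
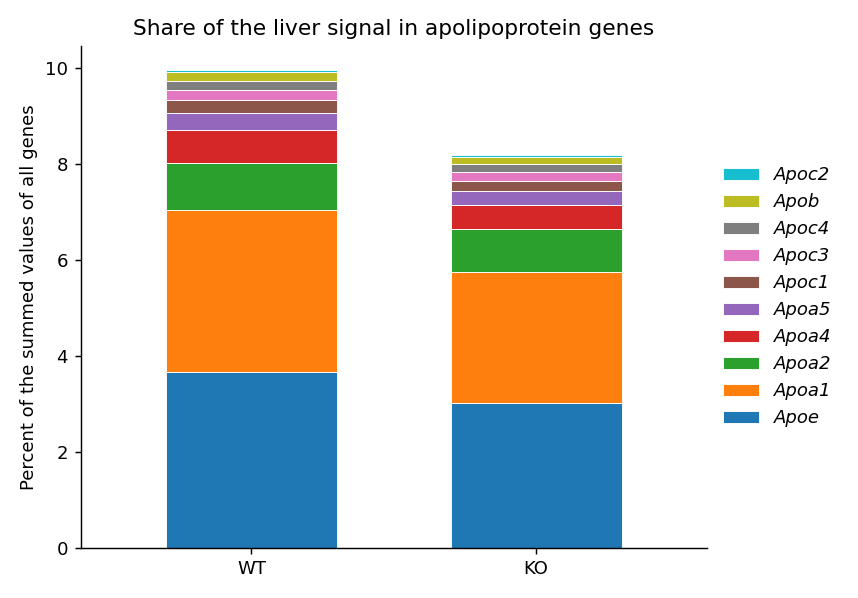
Share of the summed values of all genes (y axis, percent) taken by each apolipoprotein gene in WT and in KO, as stacked bars of 1 combined value per genotype. The stack reaches 9.96% in WT and 8.18% in KO, and *Apoe* and *Apoa1* fill most of it in both.

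With 9 of its 10 members among the 100 highest genes in WT and 8 in KO, the family spanned a 76.6-fold range of WT values. In WT the order from high to low was *Apoe*, *Apoa1*, *Apoa2*, *Apoa4*, *Apoa5*, *Apoc1*, *Apoc3*, *Apoc4*, *Apob* and *Apoc2*. The order in KO was the same. Whether neighbours in this order, such as *Apoc3* and *Apoc4*, differ beyond the spread between pools cannot be read from combined values. Per kilobase of gene length the order changed, since the length given for *Apob* is 13931 bases and that for *Apoc1* 434 bases. In WT *Apoa1* then had rank 1 of all genes with 675236 per kb, *Apoe* rank 3 with 563654 and *Apoa2* rank 4 with 368665. *Apob* was last of the family with 2570 per kb. Per kilobase, *Apoa1* was thus 263-fold above *Apob* in WT and 286-fold in KO.

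**Figure D2:**
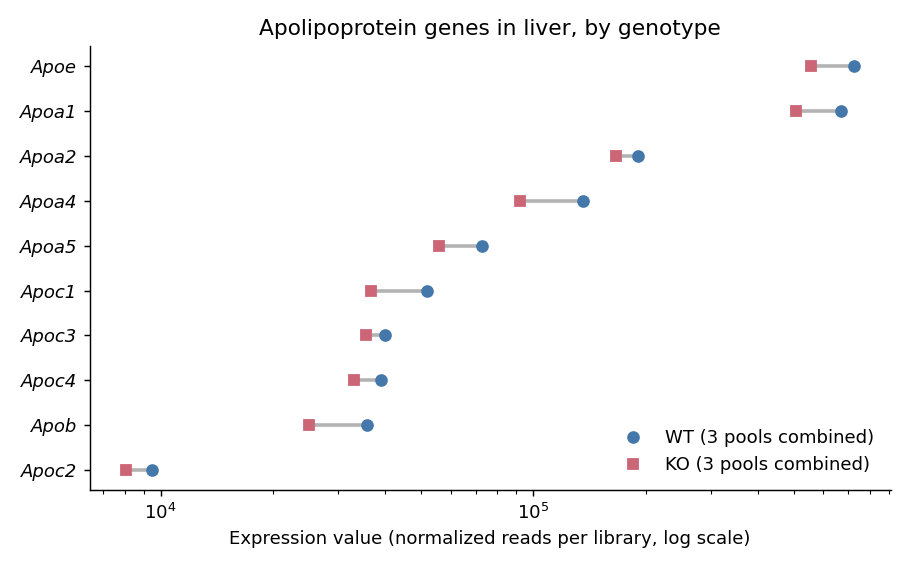
Expression values of the 10 apolipoprotein genes (x axis, normalized reads per library, log scale) in WT (circles) and KO (squares), each point being the combined value of 3 pools, with genes ordered by their WT value. The KO point is left of the WT point in each gene, farthest on this scale in *Apoa4*, *Apob* and *Apoc1*.

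Among the structural proteins of HDL, *Apoa1* encodes the main protein of the particle and the activator of LCAT, the enzyme that esterifies its cholesterol. Its value was 667133 in WT and 505509 in KO (log2 ratio of KO over WT, -0.40). *Apoa2*, which encodes the next most abundant HDL protein, had 191337 in WT and 166870 in KO (log2 ratio -0.20). The log2 ratio was thus nearer to 0 in *Apoa2* than in *Apoa1*, and *Apoa1* went from 3.49 times *Apoa2* in WT to 3.03 times in KO.

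The ligands of lipoprotein receptors in the family are apolipoprotein B, of which each VLDL or LDL particle holds a single copy, and apolipoprotein E, which mediates the uptake of remnant particles. *Apoe* had the highest value of the family, 725423 in WT and 557398 in KO (log2 ratio -0.38), and had rank 2 of all genes in both genotypes. *Apob* had 35805 in WT and 24961 in KO (log2 ratio -0.52). Macrophages also make apolipoprotein E, and 5 of the 6 macrophage markers were higher in KO, with a summed level of 2208 in WT and 2591 in KO. *Clec4f* alone of these markers was lower in KO, with 895 in WT and 865 in KO (log2 ratio -0.05). Whether macrophages had a part in the *Apoe* values was not tested.

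Mouse liver can edit the *Apob* transcript at a single C, which turns a CAA codon into a stop codon and gives the short protein B48. The codon, shown with the mooring element downstream of it because the deposited value does not separate the edited from the unedited transcript, is codon 2179 in exon 26, and its C lies at position 8008054 of chromosome 12. The capitals mark CAA and the mooring element.
*Apob* edited site, chr12:8008048-8008072 (+ strand, GRCm38, from the GENCODE M21 transcript): gcgataCAAttTGATCAGTATAtta

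In a list of 6 genes drawn up for this editing, 5 were measured and 0 were past 1.5-fold. The list also held *Apobec3*, an antiviral relative of the deaminase that is not known for editing *Apob* and had 29.7 in WT and 27.6 in KO. *Apobec1*, which encodes the deaminase, had 86.5 in WT and 93.3 in KO. *Syncrip*, an RNA-binding partner, had the lowest log2 ratio of the 5 (-0.56), with 165 in WT and 112 in KO. *Rbm47*, a cofactor, had the highest log2 ratio (0.15), with 353 and 391. *A1cf*, also in the list, had 557 in WT and 574 in KO (log2 ratio 0.04). The extent of editing itself was not analysed here.

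The log2 ratios of the regulators of lipoprotein lipase, the enzyme that releases fatty acids from triglyceride-rich particles, ranged from -0.51 to -0.17. *Apoc2*, the obligate cofactor of the lipase, had 9469 in WT and 8077 in KO (log2 ratio -0.23). *Apoa5*, which raises lipolysis, had 72993 in WT and 55861 in KO (log2 ratio -0.39). *Apoc3*, which restrains lipolysis and the uptake of remnants, had 40004 in WT and 35460 in KO (log2 ratio -0.17), the log2 ratio nearest to 0 among the 10 genes. The ratio of *Apoa5* to *Apoc3* went from 1.82 in WT to 1.58 in KO, while *Apoc2* stayed near 0.237 times *Apoc3* in WT and 0.228 times in KO. *Apoc1*, which inhibits the clearance of VLDL, had 51945 in WT and 36587 in KO (log2 ratio -0.51), and it went from 1.30 times *Apoc3* to 1.03 times.

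*Apoa4*, an apolipoprotein of chylomicrons and HDL, had 136017 in WT and 92211 in KO (log2 ratio -0.56), the log2 ratio farthest from 0 in the family. Its rank among all genes was 19 in WT and 32 in KO. Among the enterocyte markers *Fabp2*, which encodes the intestinal fatty acid binding protein, was also lower in KO, with 813 in WT and 445 in KO. Of the 6 enterocyte markers 3 were in the table, with a summed level of 816 in WT and 448 in KO, and the other measured markers, *Vil1* (2.0 and 2.7) and *Alpi* (0.52 and 0.61), were near 0 in both genotypes. *Apoc4*, a minor VLDL protein, had 39137 in WT and 32967 in KO (log2 ratio -0.25).

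**Figure D3:**
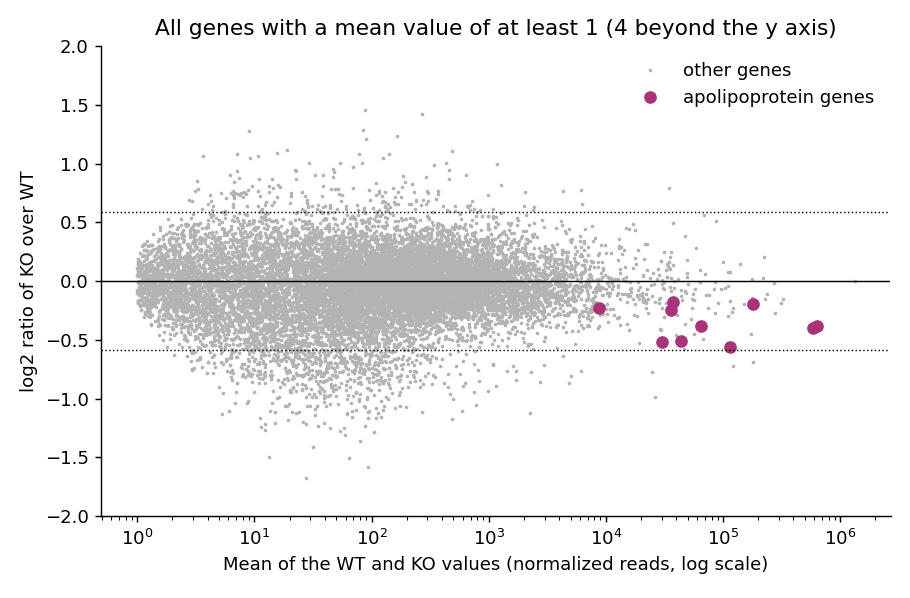
Log2 ratio of KO over WT (y axis) against the mean of the WT and KO values (x axis, normalized reads, log scale) for the 14106 genes whose mean of both values reached 1, with the apolipoprotein genes as large points and 1.5-fold as dotted lines (4 genes are beyond the y axis). The 10 apolipoprotein genes sit at the right, all under 0 and all inside the dotted lines.

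Set against all genes whose mean of both values reached 1, the log2 ratios of the family lay inside the central 95%. No member passed 1.5-fold, a limit that 6.37% of the 14106 genes whose mean of both values reached 1 passed in either direction, 4.93% being lower and 1.45% higher in KO. At least 1.2-fold lower were 6 of the 10 members (*Apoa4*, *Apob*, *Apoc1*, *Apoa1*, *Apoa5* and *Apoe*), against 20.6% of these genes. The other 4, *Apoc4*, *Apoc2*, *Apoa2* and *Apoc3*, had KO values between 84.2% and 88.6% of WT. The median log2 ratio of the members was -0.38, and that of these 14106 genes was -0.05. The central 95% of log2 ratios ran from -0.75 to 0.49 over the same genes and from -0.46 to 0.45 over the 1765 genes whose mean reached 1000, and *Apoa4*, *Apob* and *Apoc1* were below the latter range. Among the 235 other genes whose mean value was at least that of *Apoc2*, the lowest member, 63.4% were lower in KO and 15.7% at least 1.2-fold lower. Their median log2 ratio was -0.06, and 2.13% of them were past 1.5-fold in either direction. Of those 1765 genes, 23 had a lower log2 ratio than *Apoa4* and 418 a lower one than *Apoc3*.

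For scale, counting error alone would give these log2 ratios a 95% interval of between ±0.0029 (*Apoe*) and ±0.025 (*Apoc2*), if the reads of a genotype are taken as 3 times its value. These intervals leave out the spread between mice and pools. They therefore do not show that a difference exceeds it.

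The hepatocyte markers, other genes with high values in the same tissue, gave both directions. *Fgb* (-0.29), *Ahsg* (-0.27), *Ttr* (-0.26) and *Serpina1a* (-0.14) had log2 ratios below 0, while *Alb* (0.0033) and *Cyp2e1* (0.20) did not. All of these but *Cyp2e1* encode secreted plasma proteins, so that trait does not separate the 2 directions. Genes that share annotation terms with the family in the table were also read. The term for the VLDL particle was held by 8 members and by 9 other measured genes, of which 5 were lower in KO, with -0.06 as their median log2 ratio. The term for the chylomicron was held by 8 members and 5 other measured genes, of which 2 were lower, with a median of 0.05.

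The position of the genes was compared with their log2 ratios. On chromosome 9 the neighbours *Apoa1* (-0.40), *Apoc3* (-0.17) and *Apoa4* (-0.56) held the log2 ratios nearest to and farthest from 0 in the family side by side, and *Apoa5* (-0.39) was close to *Apoa1*. On chromosome 7 the ratios of *Apoe* (-0.38) and *Apoc1* (-0.51) at the upstream end were lower than those of *Apoc4* (-0.25) and *Apoc2* (-0.23) at the downstream end. The nearest genes outside the clusters whose mean reached 10 had log2 ratios of 0.15 (*Sik3*) and -0.13 (*Zpr1*) on chromosome 9, and of -0.04 (*Clptm1*) and -0.36 (*Tomm40*) on chromosome 7. *Tomm40*, which encodes a pore subunit of the mitochondrial import machinery and lies 2.13 kb beyond *Apoe*, was thus close to *Apoe* in its ratio. On chromosome 1 the genes next to *Apoa2* had -0.12 (*Tomm40l*) and 0.05 (*Fcer1g*).

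**Figure D4:**
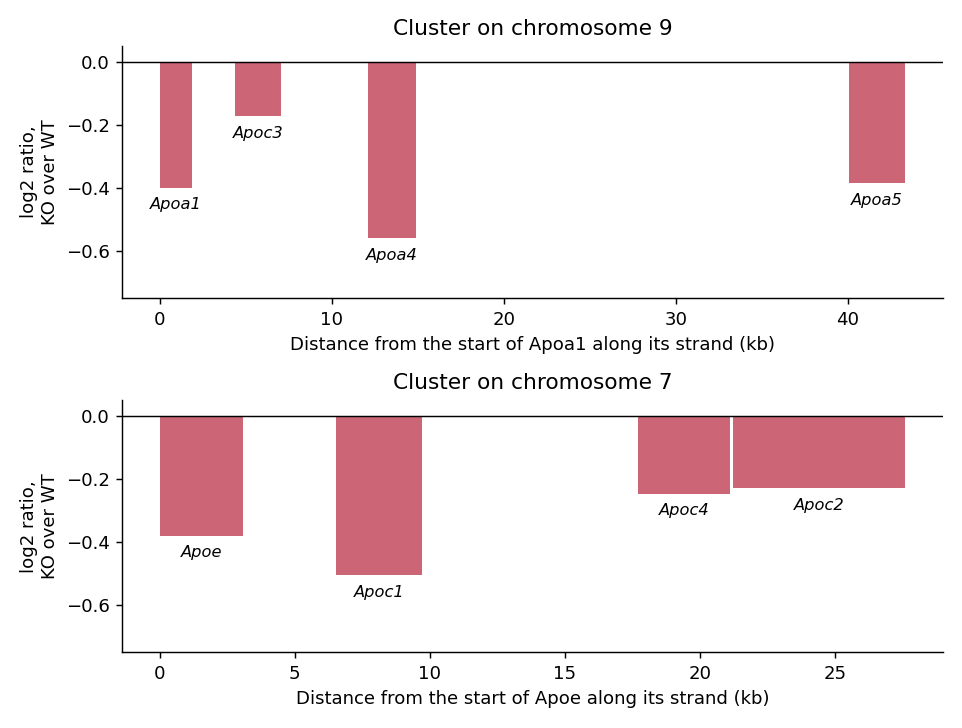
Log2 ratio of KO over WT (y axis) of the apolipoprotein genes of the clusters on chromosomes 9 and 7, drawn as bars over the extent of each gene by distance from the start of *Apoa1* or *Apoe* along its strand (x axis, kb). *Apoc3*, with -0.17, stands between *Apoa1*, with -0.40, and *Apoa4*, with -0.56.

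*Apoc4* and *Apoc2* share their locus with an annotated read-through transcript that spans both. The table lists this read-through gene, *Apoc4-apoc2*, with 213 in WT and 277 in KO (log2 ratio 0.38), the opposite direction to that of *Apoc4* and *Apoc2*. Its values are small beside theirs, and how reads were divided between the 3 genes is uncertain. *Apoa4* and *Apoa5* overlap annotated antisense genes, and the library protocol describes no step that keeps the strand, so that sense and antisense reads cannot be told apart there.

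The genes with the most similar pair of values were found by the distance between log2(value + 1) in WT and in KO, over the 2 genotypes. The nearest gene to *Apoe* was *Apoa1*, and the reverse, at a distance of 0.19. The nearest to *Apoa4*, *Apob* and *Apoc1* were major urinary protein genes (*Mup11*, *Mup17* and *Mup3*), at distances between 0.018 and 0.11. The *Mup* genes are near-identical copies of each other, so that the division of reads among them is uncertain. For *Apoa5* it was *Gnmt*, the glycine methyltransferase gene, for *Apoa2* *Serpina1a*, for *Apoc3* *Cyp2f2*, for *Apoc4* *Stard10* and for *Apoc2* *Gpx4*. With 2 values per gene this likeness is in level and ratio only.

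The values of other apolipoproteins differed in both directions. Of 16 measured, 11 were lower in KO, 0 by 1.5-fold and 3 by at least 1.2-fold, and the median log2 ratio was -0.08. Over all measured genes 57.5% were lower, 4.93% by 1.5-fold and 20.6% by at least 1.2-fold, with a median of -0.05. *Apom*, which encodes the HDL protein that carries sphingosine 1-phosphate, had 5021 in WT and 4100 in KO (log2 ratio -0.29). *Clu*, also known as apolipoprotein J, had 57666 and 53384 (log2 ratio -0.11), and *Apof* 11002 and 11232 (log2 ratio 0.03). By the rule for named genes the lowest was *Apool*, a mitochondrial protein gene despite its name, with 138 and 108 (log2 ratio -0.35), and the highest *Apol7a* with 690 and 874 (log2 ratio 0.34). *Apol11b*, the 1 gene past 1.5-fold, had values of 2.0 and 3.9 only. *Apom*, *Clu*, *Apof*, *Apol11b*, *Apobec1*, *Apobec3* and *A1cf* were named after their values were seen.

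The serum amyloid A genes, whose products travel on HDL as acute phase apolipoproteins, were on the other side. *Saa1* had 542 in WT and 4748 in KO, and *Saa2* 299 and 4056. *Saa4*, the constitutive member, had 997 and 1276 (log2 ratio 0.36), and *Saa3* 58.7 and 67.6 (log2 ratio 0.20). *Saa1* and *Saa2* are near-identical in sequence, and how reads were divided between them is uncertain. Even in KO the value of *Saa1* was small beside that of *Apoa1*.

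Genes that load and export apolipoprotein B particles had no common direction. Of the 14 genes of assembly and secretion, 0 were past 1.5-fold and 7 were lower in KO, and their median log2 ratio was -0.0011. *Mttp*, which encodes the transfer protein that lipidates apolipoprotein B, was the highest of them with 4503 in WT and 5656 in KO (log2 ratio 0.33), opposite in direction to *Apob*. *Tm6sf2*, which also takes part in the lipidation of VLDL, was the lowest with 857 and 728 (log2 ratio -0.24).

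Of the 15 lipases and plasma partners, which act on lipoproteins once these are in the circulation, 10 were lower in KO, and the median log2 ratio was -0.05. Over all measured genes 57.5% were lower, and the median was also -0.05.

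Among the 11 measured receptors and HDL assembly genes, 0 passed 1.5-fold, and the median log2 ratio was -0.0046. The lowest whose mean reached 10 was *Lrpap1*, a chaperone of lipoprotein receptors, with 651 in WT and 573 in KO (log2 ratio -0.18).

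Of the 31 transcription regulators, 16 were lower in KO, against 57.5% of all measured genes, and the median log2 ratio was -0.06. At least 1.2-fold lower were 5 of them and at least 1.2-fold higher 5, against 20.6% and 11.6% of all measured genes. Regulators known to act on apolipoprotein promoters, named after their values were seen, differed in both directions. *Hnf4a* had 12717 in WT and 14949 in KO (log2 ratio 0.23), and *Creb3l3*, an activator of *Apoa4* and *Apoc2*, had 16377 and 15618 (log2 ratio -0.07). *Ppara*, the fatty acid receptor of the fasted liver, had 3501 and 4872 (log2 ratio 0.48). *Nr1d1* had 3497 in WT and 2455 in KO (log2 ratio -0.51), the lowest log2 ratio of the 31.

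**Figure D5:**
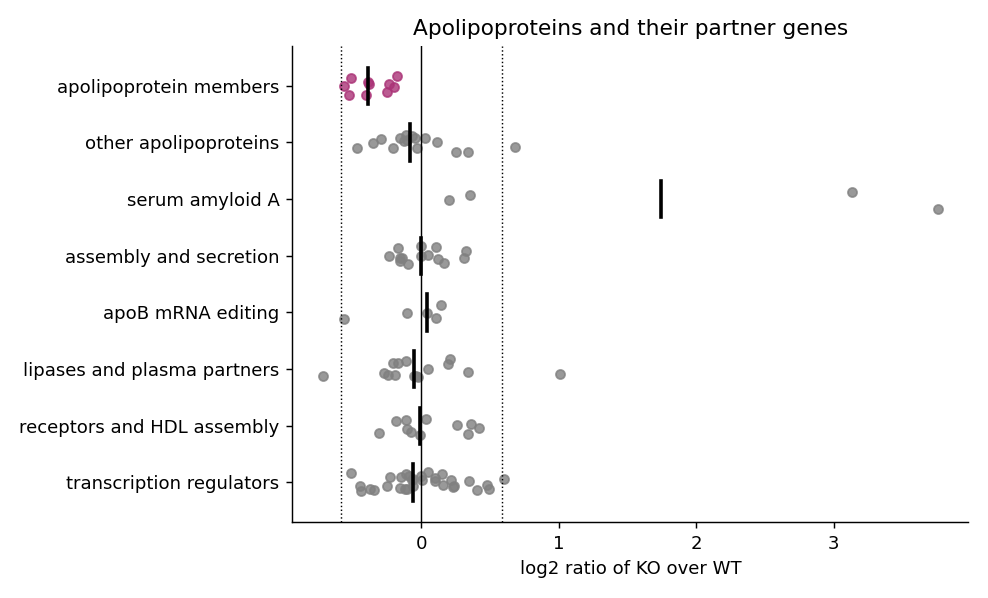
Log2 ratio of KO over WT (x axis) of each gene whose mean of both values reached 1 (points) in the apolipoprotein family and in 7 lists of partner genes (rows), with the median of each list as a black bar and 1.5-fold as dotted lines. The family median is -0.38, and outside serum amyloid A the medians of the other lists lie between -0.08 and 0.04.

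The direction in the family was the same on each scale tried, where a change of scale shifts all 10 log2 ratios equally. The total over all genes differed between genotypes by -0.09 on the log2 scale, and the median gene by -0.05. Relative to the total over all genes the 10 log2 ratios ranged from -0.47 (*Apoa4*) to -0.08 (*Apoc3*). Relative to a total without the red cell markers, a scaling added after the data were seen, they ranged from -0.46 to -0.07, so that all 10 genes were lower in KO on each of these scales. The values come from bulk liver, in which fewer cells of a type and less RNA per cell cannot be told apart.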

How the data were processed

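Liver RNA was measured by RNAseq in 6 libraries, 3 of WT and 3 of KO pools, grouped by their titles. Per the labels, poly(A) RNA was fragmented and copied with random primers, and the submitters' processing notes name HISAT2, Bowtie2, RSEM, StringTie, Cufflinks and GATK with the build mm10, without roles or versions. The authors deposited clean read counts per library, percent values of mapped and ribosomal reads, and for each gene 1 expression signal per genotype, on the scale of reads after normalization, for which the name of the table gives DESeq2. The summary of splicing events was not used. No gene was listed at 0 in either genotype, although 696 genes had a mean value under 0.25, so the values of a genotype are not plain means of its libraries. The ratios may therefore be pulled toward 0, and by how much cannot be read from the values. The columns of fold changes and p-values hold the authors' own comparison and were not used. The log2 ratios given here are nevertheless not independent of that comparison. For *Saa1* and *Saa2* the ratios of both values match the RNAseq ratios that the paper reports.

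The design foresaw edgeR for counts per library. With 1 combined value per genotype no test was possible, and the values were described. Log2 ratios of KO over WT were computed as log2(value + 1), with numpy 2.4.6 and pandas 2.3.3, over all 16123 genes, and a gene counted as measured where the mean of both values reached 1 (14106 genes). The computation of the ratio and the limits was tested on simulated data. That test concerns the computation only. It cannot show the spread between pools, or whether the deposited values pull the ratios closer together, so nothing about either is concluded from it. Named genes were all members, in each of 7 lists the genes past 1.5-fold with a mean value of at least 10 or else the highest and lowest such gene, all 4 serum amyloid A genes, and the gene nearest to each member. Some genes that this rule names are not reported here. Members, lists and motifs were chosen with earlier results of these data known. Positions are those of GENCODE M21, and promoters those of RefSeq. Counting intervals cover counting error only. Alternatives were other pseudocounts, filters, folds and scalings.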

Additional observations from a re-analysis of the deposited data

How the results depend on the processing

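All 10 members were lower in KO under 6 other settings, and none passed 1.5-fold under them. Each setting either changed the pseudocount, which hardly moves values this high, or shifted the ratios of all members equally toward 0. They repeat the same comparison and are no separate support for it. The median log2 ratio of the members, -0.38, became -0.34 when centred on the median gene, -0.29 relative to the total of all genes, -0.32 relative to the total without the members and -0.28 relative to the total without the red cell markers. With a limit of 1.2-fold, 6 members passed in place of 0. Divided by gene length, the members took 15.6% of the WT and 13.6% of the KO signal. The share of genes past 1.5-fold was 5.58% over all genes and 1.87% over genes whose mean reached 1000. Of all genes whose mean reached 1, 32.2% were past 1.2-fold in either direction. At this limit, 5 of 16 other apolipoproteins passed in place of 1, and 2 of 14 genes of assembly and secretion in place of 0. In the list for editing 1 of 5 passed in place of 0, and 4 of 15 lipases and plasma partners in place of 2. Among receptors and HDL assembly 4 of 11 passed in place of 0, and 10 of 31 transcription regulators in place of 1. With a minimum mean of 10, other apolipoproteins past 1.5-fold numbered 0. Centring shifts all ratios alike and so changed the sign of medians near 0, giving 0.044 for assembly and secretion and 0.041 for receptors and HDL assembly. The filter at 10, which drops genes with low values from a list, gave 0.016 for receptors and HDL assembly. No paired analysis was possible because the genotypes share 1 pool number and the values are combined. Leaving out a pool, edgeR and DESeq2 could not be run on combined values, so that the weight of any 1 pool in these differences is unknown.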
